A study of Mus musculus with 12 samples.

Results

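Livers of 4-week-old C57BL/6 mice were compared between the offspring of NP+tau and NP dams, which makes 6 of the 12 arrays of the series. All dams ate the normal protein diet with 20% casein. NP+tau dams drank water with 1% taurine from the first day of pregnancy until birth, and NP dams drank water without it. Each group had 3 pups, and RNA was taken from liver tissue without separation of its cell types. According to the study's methods, every pup had its own dam. All 45037 probe sets that were not array controls, of 45101 on the array, were used. Values are log2 RMA values (a summary of the probes of each probe set, 1 unit being a doubling), quantile normalised within the tissue by the authors. Differences are NP+tau minus NP on this scale, with the standard error from limma. A level is compared between livers for 1 gene, never between genes.

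Taurine is an amino sulfonic acid that the liver makes from cysteine and joins to bile acids. The 4-week liver is near weaning, when transcripts of the fetal liver have been shut down and the enzymes of the adult hepatocyte are being set up. Hepatocytes also answer signals from other cells. Cytokines of the interleukin-6 family activate the transcription factor STAT3, which raises the synthesis of acute phase proteins secreted into plasma, while immediate-early genes are transcribed within minutes of a stimulus and need no newly made protein.

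The livers differed in ways that the diet groups do not describe. NP+tau replicate 1 stood apart: the median distance of its probe sets from the median of the other 5 livers was 0.32, against 0.10 to 0.15 in the others. In it, 4037 probe sets lay at least 1 below the other livers and 1753 at least 1 above, and its bacterial hybridisation controls averaged 10.96 against 9.54 to 10.16 elsewhere. The 3' minus 5' difference of pyruvate carboxylase, which grows as RNA is shortened, was 2.95 in this liver and 1.93 to 2.27 in the others, whereas that of Gapdh was -0.11 to -0.15 in all 6. The labels do not give sex. Xist, which is transcribed from the inactive X chromosome, and the Y-linked Eif2s3y separated NP+tau replicates 2 and 3 (Xist 5.96 and 5.07) from the 4 other livers (Xist 11.08 to 11.78). The study's methods describe mixed sexes in every group, and by these transcripts NP is not mixed, so sex and diet cannot be told apart in the differences below. The hepatocyte markers, such as the plasma proteins Apoa1 and Ttr, had a mean level of 13.70 to 13.90 in the 6 livers. The part of these differences between livers in any single result was not tested, and values without the livers concerned are given where they matter.

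No probe set passed limma's test at an adjusted p under 0.05, which is 0% of those tested. The smallest adjusted p was 0.758, and no gene named below had a smaller one. At an unadjusted p under 0.05, 569 probe sets were higher in NP+tau liver (1.26%) and 1511 were lower (3.36%). The 3 NP+tau values all lay above the 3 NP values for 3046 probe sets (6.76%) and all below them for 3213 (7.13%). Since 3 of 6 livers can be chosen in 20 ways, some probe sets separate like this without any difference between the groups. Means differed by at least 1 for 150 higher (0.333%) and 591 lower probe sets (1.31%), so that large differences were mostly towards lower values in NP+tau. When each gene was represented by its brightest probe set, 18193 genes were left. Of these, 51.8% had a mean difference above 0 and 48.2% below 0, 1.43% were higher and 3.97% lower at an unadjusted p under 0.05, and the groups were apart without overlap for 6.99% in the higher and 7.76% in the lower direction. The counts of gene groups below are set beside these shares, and nothing in them passed a test over all genes. The gene groups were chosen with earlier results of these data known, so a count above these shares is not a test.

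The genes higher in NP+tau with the smallest p were taken from those whose groups did not overlap. Among them, the transcript detected by the Mup3 probe set differed most. Mup3 encodes a major urinary protein, secreted by the liver as a pheromone carrier. Its level was 6.17, 7.07 and 7.08 in the NP livers and 9.02, 8.84 and 8.39 in the NP+tau livers, without overlap between the groups. The difference was 1.98 (standard error 0.30, 3.94-fold), and it stayed between 1.68 and 2.16 when any 1 liver was left out. The major urinary protein genes are near copies of each other, so the signal may be shared among them. Hopx, an atypical homeodomain protein without DNA binding, was at 9.21, 8.75 and 9.61 in NP and at 10.21, 10.43 and 9.96 in NP+tau liver, a difference of 1.01 (standard error 0.25). Nrp1, a co-receptor for semaphorins and vascular endothelial growth factor, averaged 9.39 ± 0.08 over the NP livers and 10.06 ± 0.22 over the NP+tau livers (SD, n = 3 for both). Its difference was 0.67 (standard error 0.14), and 3 of its 4 probe sets were higher in NP+tau. The lipid transporter Abca3 differed by 0.81 (standard error 0.16) and had the same direction in each of its 3 probe sets. The others of these 12 genes that have a known role include the nicotinic receptor subunit Chrna2 (0.84, standard error 0.17), the ADP receptor P2ry1 (0.68, standard error 0.13), Amn, which takes part in vitamin B12 uptake (0.73, standard error 0.16), the mitochondrial cysteine tRNA ligase Cars2 (0.52, standard error 0.11) and the cytokine Tnfsf14 (0.51, standard error 0.12).

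Genes lower in NP+tau with the smallest p were likewise taken from those whose groups did not overlap. They were led by Pim1, a serine/threonine kinase known as a target of STAT3. Pim1 was at 7.73, 7.09 and 7.63 in NP livers and at 6.18, 6.27 and 6.25 in the NP+tau livers. Its difference was -1.25 (standard error 0.19, 2.38-fold, unadjusted p = 0.000536 from limma), with a range of -1.45 to -1.12 over the fits without 1 liver. Stat3 itself was at 10.46, 10.16 and 10.29 in NP and at 9.59, 9.35 and 9.62 in NP+tau, a difference of -0.78 (standard error 0.13). Of the 4 probe sets of Stat3, 3 were lower in NP+tau and 1 was higher, the last at levels of 4.15 to 4.89. Icam1, the adhesion molecule that leukocytes bind on vessel walls, was at 7.29, 6.94 and 6.96 in NP and at 6.28, 6.44 and 6.20 in NP+tau, a difference of -0.76 (standard error 0.14). The 2 separate ranges of the 6 livers in all 3 genes follow from this choice. Over the fits without 1 liver, the difference was -0.86 to -0.70 for Stat3 and -0.82 to -0.64 for Icam1.

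Other genes of this group belong to different processes. Cyp2c55, a cytochrome P450 of fatty acid and drug oxidation, was at 8.16, 7.88 and 8.21 in NP and at 6.80, 6.93 and 7.27 in NP+tau liver, a difference of -1.08 (standard error 0.16). Crebrf, a regulator of the stress factor CREB3, was at 7.28, 7.70 and 7.46 in NP and at 5.31, 6.17 and 6.24 in NP+tau, a difference of -1.58 (standard error 0.28). Smoc2, a calcium-binding matrix protein, was at 8.76, 9.08 and 8.79 in NP and at 7.13, 6.56 and 7.84 in NP+tau, a difference of -1.70 (standard error 0.33). The NP values of these genes lay close together, and the NP+tau values were more spread in Crebrf and Smoc2. Differences were -0.84 (standard error 0.16) for Pla2g4a, the cytosolic phospholipase that frees arachidonic acid, -0.86 (standard error 0.16) for the death receptor Tnfrsf21, -0.81 (standard error 0.16) for Nckap1l, an actin regulator of blood cells, and -0.85 (standard error 0.15) for the glucocorticoid-induced Glcci1. All of these genes were chosen for groups that did not overlap, so their sign could not change when 1 liver was left out.

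**Figure D1:**
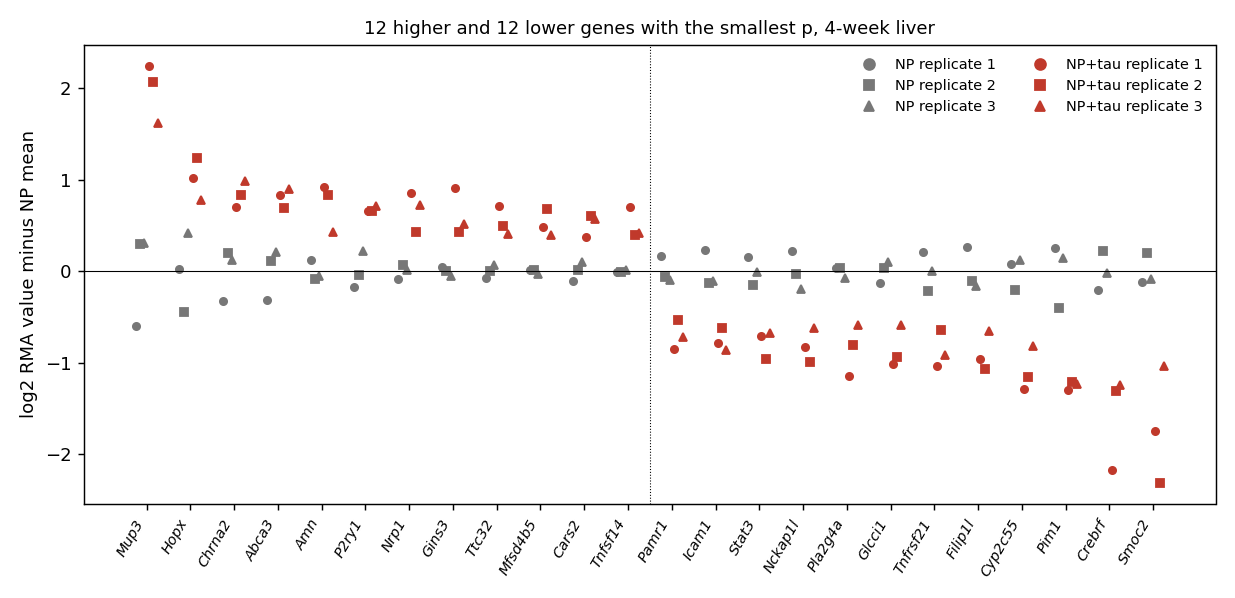
Log2 RMA value minus the mean of the 3 NP livers (vertical axis) for the 12 higher and the 12 lower genes with the smallest p among genes whose groups did not overlap, with grey points for NP livers, red points for NP+tau livers and a marker shape for each replicate number. Mup3 has the widest gap among the higher genes, and Smoc2 and Crebrf have the lowest NP+tau values among the lower genes. The genes were selected for not overlapping.

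Immediate-early genes had lower means in NP+tau liver almost throughout. Of 24 measured, 23 had a difference below 0, the groups did not overlap for 12 in the lower direction (7.76% of all genes) and 0 in the higher, and 13 were lower at an unadjusted p under 0.05 (3.97% of all genes). The median difference was -0.77, against 0.01 over all genes. Fos, a subunit of the transcription factor AP-1, was at 8.52, 7.29 and 6.80 in NP livers and at 5.66, 4.58 and 5.001 in the NP+tau livers, a difference of -2.46 (standard error 0.50, 5.49-fold). Its partner Jun was at 8.38, 9.03 and 7.97 in NP and at 6.40, 7.29 and 7.09 in NP+tau, a difference of -1.54 (standard error 0.35). Both AP-1 subunits were separated between the groups, with NP replicate 1 highest for Fos and NP replicate 2 highest for Jun. Junb, a further AP-1 subunit, averaged 7.10 ± 0.72 over the NP livers and 5.51 ± 0.12 over the NP+tau livers, and the nuclear receptor Nr4a1 averaged 7.10 ± 0.22 and 6.22 ± 0.32 (SD, n = 3 for each). Among genes that end such responses, Zfp36, which destabilises cytokine mRNAs, differed by -0.94 (standard error 0.29), Socs3, the inhibitor of STAT3 signalling, by -1.09 (standard error 0.37) and Gadd45b, of the stress-induced Gadd45 family, by -0.57 (standard error 0.14). The exception, Gadd45g, differed by 0.18 (standard error 0.42), and its sign changed with the livers used. The mean level of the list was 7.84, 7.35 and 7.07 in the NP livers and 6.53, 6.42 and 6.54 in the NP+tau livers, so that NP was the more spread group. Without NP replicate 1 and NP+tau replicate 1, the median difference was -0.52 and 23 of the 24 genes remained below 0.

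Acute phase and STAT3 pathway genes had smaller differences in the same direction. Of 26 measured, 24 had a difference below 0. Without overlap of the groups 11 were lower (7.76% of all genes), and at an unadjusted p under 0.05 also 11 (3.97% of all genes). None was higher by either measure. The median was -0.46. The 3 chains of fibrinogen, the clotting protein, were all lower in NP+tau: Fgb was at 14.31, 14.21 and 14.28 in NP and at 13.61, 13.86 and 13.91 in NP+tau, and the differences were -0.47 (standard error 0.12) for Fgb, -0.32 (standard error 0.09) for Fga and -0.29 (standard error 0.11) for Fgg. All 3 transcripts are abundant in liver and were at levels near 14. Lbp, which presents bacterial lipopolysaccharide to its receptors, was at 11.16, 10.79 and 10.78 in NP and at 9.59, 10.33 and 9.996 in NP+tau, a difference of -0.94 (standard error 0.22). Serpina3n, a protease inhibitor, differed by -0.46 (standard error 0.17), and the interleukin-1 receptor Il1r1 by -1.03 (standard error 0.40), or by -0.63 without NP replicate 1. Serum amyloid Saa1 was at 9.14, 6.24 and 6.19 in NP and at 4.31, 4.54 and 5.95 in NP+tau liver, a difference of -2.26 (standard error 0.91) that NP replicate 1 widened. Without that liver it was -1.28. Crp, a weak acute phase protein in mice, differed by 0.30 (standard error 0.40), and by -0.10 without NP replicate 1. Without NP replicate 1 the median of the list was -0.28, with 23 of 26 genes below 0, and without both livers labelled replicate 1 it was -0.30.

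**Figure D2:**
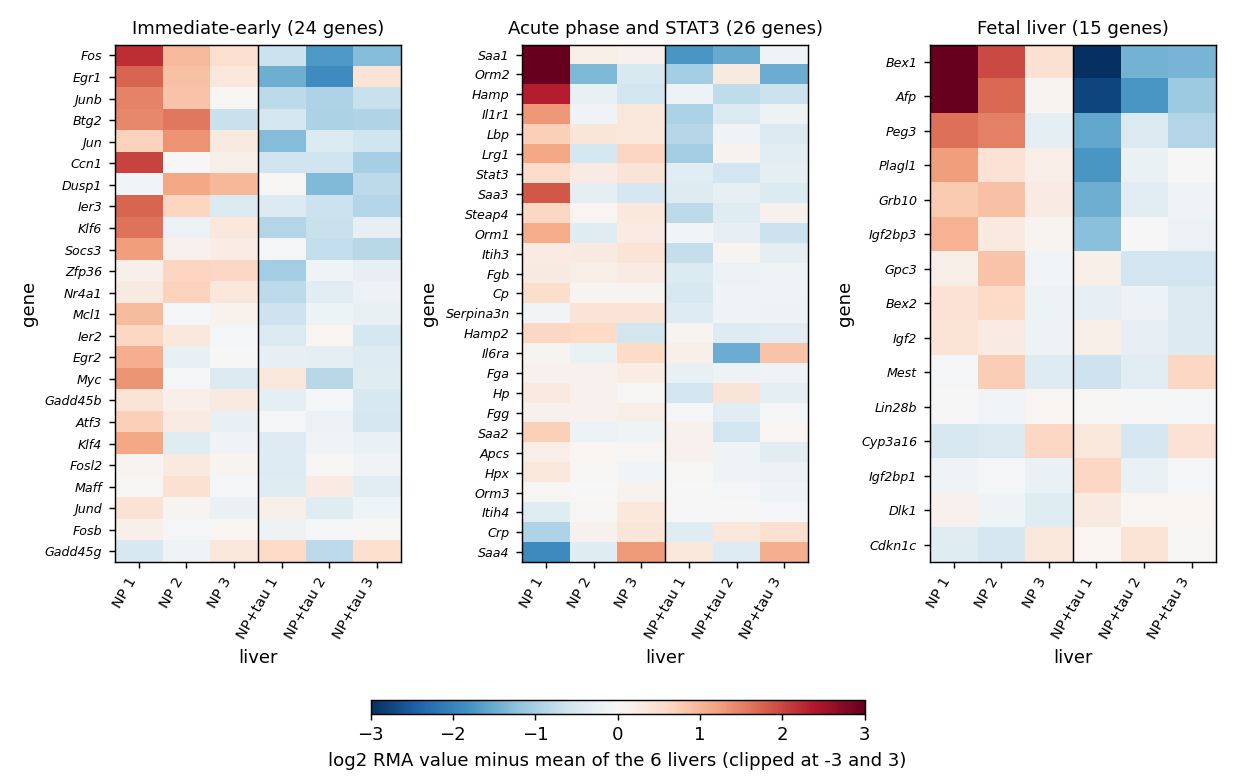
Log2 RMA value of each gene minus its mean over the 6 livers (colour, red higher and blue lower, clipped at -3 and 3) for the 24 immediate-early, 26 acute phase and STAT3, and 15 fetal liver genes (rows, ordered by difference) in each liver (columns). NP replicate 1 has the deepest red in all 3 lists, and the immediate-early list is mostly blue in the NP+tau livers.

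STAT proteins bind the palindrome TTCNNNGAA, and promoters of the lower genes were searched for it because Stat3 was among them. The genes were the immediate-early and acute phase genes that did not overlap and the 12 lower genes with the smallest p, which makes 34 genes. The table of promoters from RefSeq (GRCm38.p6) held 30 of them with 40 promoters. In the 250 bases before the start, 5 of the 40 (12.5%) held the letters, against 7.02% of all 32851 promoters in the table. They were those of Icam1, Socs3, Zfp36, Fgb and Fga, and the promoters of Pim1 and Stat3 held no match in this window. The genes were chosen from these data, partly from a list that holds STAT3 pathway genes. Their share with a match therefore cannot test a role of STAT3. The motif reads the same on both strands. The first 4 are printed 5′ to 3′ on the strand of the gene, since these genes show what a match looks like beside a measured difference, with the match in capitals. It begins 42 bases before the start in Icam1 (chr9:21015690-21015939, plus strand), 154 in Socs3 (chr11:117969367-117969616, minus strand), 17 in Zfp36 (chr7:28379229-28379478, minus strand) and 162 in Fgb (chr3:83049864-83050113, minus strand).
Icam1: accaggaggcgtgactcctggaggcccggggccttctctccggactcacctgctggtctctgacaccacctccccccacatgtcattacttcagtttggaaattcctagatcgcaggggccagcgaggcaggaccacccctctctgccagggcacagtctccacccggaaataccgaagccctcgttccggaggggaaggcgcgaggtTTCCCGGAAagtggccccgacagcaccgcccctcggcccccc
Socs3: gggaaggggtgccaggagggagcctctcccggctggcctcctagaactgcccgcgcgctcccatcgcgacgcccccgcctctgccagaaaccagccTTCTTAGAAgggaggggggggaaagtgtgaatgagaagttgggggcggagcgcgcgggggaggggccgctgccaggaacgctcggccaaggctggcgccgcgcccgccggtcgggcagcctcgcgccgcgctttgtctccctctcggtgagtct
Zfp36: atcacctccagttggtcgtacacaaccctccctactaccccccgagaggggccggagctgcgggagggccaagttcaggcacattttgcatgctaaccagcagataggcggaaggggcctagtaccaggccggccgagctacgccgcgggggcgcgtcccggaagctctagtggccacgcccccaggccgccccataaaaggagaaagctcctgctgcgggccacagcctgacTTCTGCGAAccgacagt
Fgb: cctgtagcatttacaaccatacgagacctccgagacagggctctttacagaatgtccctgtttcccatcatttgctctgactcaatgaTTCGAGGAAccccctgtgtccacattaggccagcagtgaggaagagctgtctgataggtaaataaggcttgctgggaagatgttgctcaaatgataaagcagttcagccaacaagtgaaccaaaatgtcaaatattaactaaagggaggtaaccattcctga
A match of letters does not show that the factor is bound in these livers.

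Transcripts of the fetal liver gave some of the widest differences of the comparison. Afp, alpha-fetoprotein, the main plasma protein of the fetus, was at 12.03, 9.97 and 8.33 in NP livers and at 5.50, 6.51 and 7.16 in the NP+tau livers. The difference was -3.72 (standard error 0.96), with a range of -4.61 to -2.76 when 1 liver was left out. Of the 5 probe sets of Afp, 3 were lower in NP+tau. Bex1, a small signalling adaptor encoded on the X chromosome, was at 11.97, 10.52 and 8.99 in NP and at 5.49, 7.12 and 7.14 in NP+tau, a difference of -3.91 (standard error 0.84). In both genes NP replicate 1 was highest, NP replicate 3 came nearest to the NP+tau livers, and NP+tau replicate 1 was lowest. The imprinted genes Peg3, which is expressed from the paternal allele, and Grb10, an inhibitor of insulin and growth factor receptors, differed by -1.91 (standard error 0.59) and -1.27 (standard error 0.39), and the RNA-binding protein Igf2bp3 by -0.95 (standard error 0.41), or by -0.56 without NP+tau replicate 1. Of the 15 fetal genes measured, 11 were below 0, and 7 were lower (7.76% of all genes) and 0 higher (6.99%) without overlap. At an unadjusted p under 0.05, 5 were lower (3.97% of all genes). The median difference was -0.56, and -0.37 without the livers of replicate 1 of each group, with 13 of 15 genes below 0. With the mean of all probe sets of a gene, the median was -0.29 over the 6 livers. The growth factor axis that follows in the young animal gave mixed values. The receptor Igf1r was at 7.12, 6.57 and 6.32 in NP and at 5.71, 5.96 and 6.05 in NP+tau, a difference of -0.77 (standard error 0.23). The binding protein Igfbp2, abundant before weaning, differed by -0.85 (standard error 0.26) and the scavenging receptor Igf2r by -0.83 (standard error 0.38), whereas Igfals, the subunit that retains IGF1 in plasma, was at 6.10, 8.12 and 8.80 in NP and at 8.82, 9.08 and 9.21 in NP+tau, a difference of 1.36 (standard error 0.67). Without NP replicate 1 the difference of Igfals was 0.58, and without NP+tau replicate 1 that of Igf2r was -0.41.

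Markers of Kupffer cells, neutrophils and stellate cells and genes of MHC class II mostly had lower means in NP+tau liver. Markers of bile duct and B cells were mostly above 0 by small amounts, fewer of them without NP+tau replicate 1. In whole tissue, fewer cells of a type and less RNA per cell cannot be told apart. Of 18 Kupffer cell markers, 18 had a difference below 0 and 11 were lower without overlap (7.76% of all genes). Their list mean was 9.64, 8.52 and 8.86 in NP and 8.17, 7.31 and 8.10 in NP+tau. Clec4f, which marks Kupffer cells, was at 9.32, 9.41 and 9.93 in NP and at 8.77, 8.42 and 9.29 in NP+tau, a difference of -0.72 (standard error 0.27). Genes of antigen presentation by MHC class II, in 9 measured, were below 0 for 6 and lower without overlap for 5 (7.76% of all genes). Ctss, the protease that trims the invariant chain, was at 11.44, 9.89 and 9.95 in NP and at 8.74, 8.23 and 9.19 in NP+tau, a difference of -1.71 (standard error 0.48), and Cd74, the invariant chain itself, differed by -1.20 (standard error 0.40). Of 16 stellate cell and pericyte markers, 13 were below 0 and 6 lower without overlap (7.76% of all genes). Higher without overlap (6.99% of all genes) was only 1, the nerve growth factor receptor Ngfr (0.68, standard error 0.21). The pericyte gene Rgs5 was at 11.06, 10.53 and 10.89 in NP and at 9.73, 10.17 and 10.25 in NP+tau, a difference of -0.78 (standard error 0.20). Differences were -0.49 (standard error 0.13) for Ecm1, -1.11 (standard error 0.41) for the receptor Pdgfrb and -0.92 (standard error 0.36) for the collagen Col1a2, and without NP replicate 1 the last 2 were -0.65 and -0.59. The list mean was 8.90, 8.44 and 8.30 in NP and 8.11, 7.70 and 8.12 in NP+tau, with NP replicate 3 only just above the highest NP+tau livers. Endothelial markers gave no common direction, with 10 of 15 below 0, a median of -0.26, and 0.16 without NP+tau replicate 1. Bile duct markers were above 0 for 6 of 7 (median 0.03) and B cell markers for 6 of 8 (median 0.11). Without NP+tau replicate 1 they were above 0 for 4 of 7 (median 0.002) and 4 of 8 (median 0.009). T and NK cell markers were above 0 for 7 of 15 (median -0.01) and red blood cell markers for 2 of 10 (median -0.32, and -0.11 without NP replicate 1). Of 18 neutrophil markers, 16 were below 0 and 8 lower without overlap (7.76% of all genes), with a median of -1.03. Without NP replicate 1 the neutrophil median was -0.74, with 14 below 0. Neutrophil markers had their highest list mean in NP replicate 1 (7.75, against 4.80 to 5.85 in the others), as did the Kupffer, MHC class II and stellate lists. Muscle markers, 8 of 8 above 0, averaged 5.55 in NP+tau replicate 1 and 4.56 to 4.71 in the other livers. The red muscle oxygen store Mb was at 6.38 there against 4.66 to 4.99. Markers of pancreatic acinar cells (5.49, against 4.83 to 4.99) and of bile duct cells (5.31, against 4.68 to 5.07) were also highest there. Fat cell markers were lowest there (5.24, against 5.30 to 6.13). All values of that array were less spread (SD 1.86, against 2.01 to 2.05 in the others). The source of these levels was not tested.

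**Figure D3:**
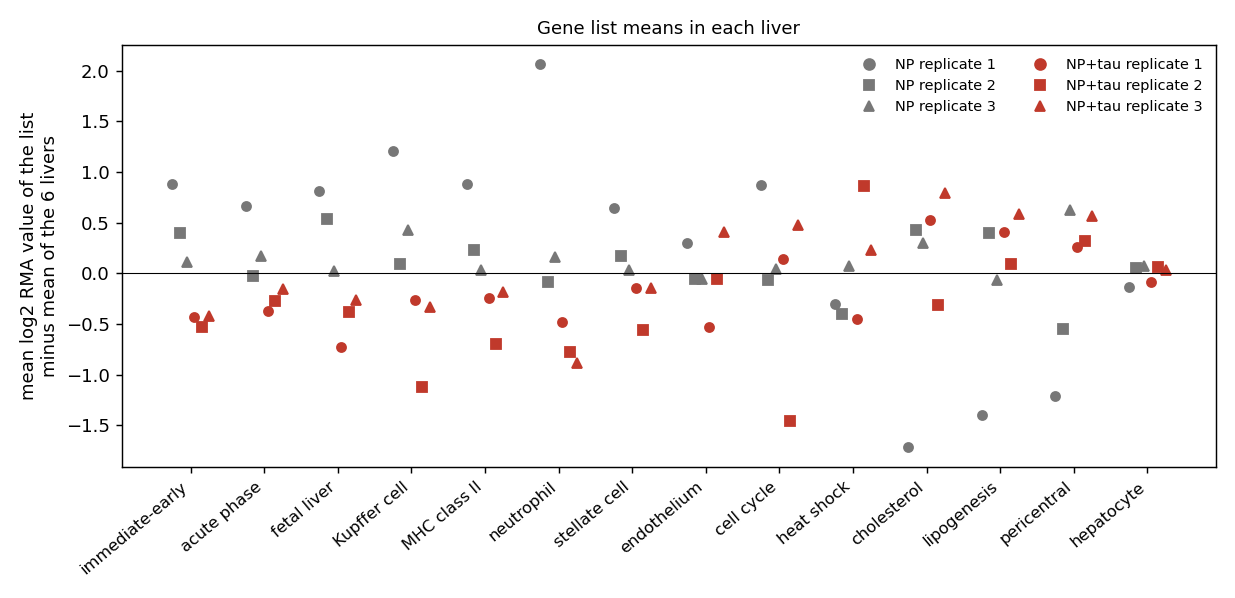
Mean log2 RMA value of the genes of a list minus its mean over the 6 livers (vertical axis) for 14 gene lists, with grey points for NP livers, red points for NP+tau livers and a marker shape for each replicate number. For the immediate-early, acute phase, fetal liver, Kupffer cell, MHC class II, neutrophil and stellate lists the 3 NP+tau livers lie below the 3 NP livers. NP replicate 1 lies lowest for cholesterol, lipogenesis and pericentral genes, and NP+tau replicate 2 lowest for the cell cycle.

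Hepatocyte genes had no common direction. Lists of lipogenesis, cholesterol synthesis and PPARα targets mostly had higher means in NP+tau, with much of the difference resting on NP replicate 1, whereas 4 of 11 genes of the urea cycle, 4 of 17 of glucose metabolism and 6 of 12 hepatocyte markers were above 0. Without NP+tau replicate 1 these first 2 counts were 9 of 11 and 9 of 17. Thrsp, a thyroid hormone and carbohydrate responsive regulator of lipogenesis, was at 4.58, 11.73 and 12.26 in NP and at 13.20, 12.34 and 13.22 in NP+tau liver. Dio1, the deiodinase that activates thyroid hormone, was at 3.89, 8.56 and 9.61 in NP and at 10.64, 10.59 and 10.76 in NP+tau. Cyp4f14, a hydroxylase of leukotrienes and fatty acids, was at 5.64, 6.85 and 9.24 in NP and at 9.79, 9.85 and 9.68 in NP+tau. The NP+tau livers lay close together for Dio1 and Cyp4f14, and the NP livers were widely spread. Differences were 3.40 (standard error 2.04) for Thrsp, 3.31 (standard error 1.44) for Dio1 and 2.52 (standard error 0.87) for Cyp4f14, and without NP replicate 1 they were 0.93, 1.58 and 1.72. Lipogenic enzymes were above 0 for 16 of 18, and 3 were higher without overlap (6.99% of all genes). Fasn, fatty acid synthase, differed by 0.99 (standard error 0.44) and the elongase Elovl6 by 1.06 (standard error 0.48). Without NP replicate 1 the differences of Fasn and Elovl6 were 0.48 and 0.53. The median of the list was 0.49, and 0.16 without NP replicate 1, in which the list mean was 9.14 against 10.47 to 11.12 in the others. For cholesterol synthesis 19 of 20 were above 0, none without overlap, with a median of 0.62 that became -0.09 without that liver. Targets of the fatty acid sensor PPARα were above 0 for 23 of 26, with a median of 0.23 and of -0.04 without it. Among these, the pantetheinase Vnn1 was at 9.37, 10.06 and 9.83 in NP and at 10.23, 11.10 and 10.74 in NP+tau (0.94, standard error 0.28), and the lipoprotein lipase inhibitor Angptl4 differed by 0.72 (standard error 0.28), whereas the kinase Pdk4 differed by -1.14 (standard error 0.60), and by -0.49 without NP+tau replicate 1.

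Liver zones differ in their enzymes, and genes of the pericentral zone were above 0 for 13 of 15, with a median of 0.58 and of 0.26 without NP replicate 1. Rhbg, an ammonium transporter of this zone, was at 4.92, 5.06 and 6.39 in NP and at 6.69, 6.79 and 6.83 in NP+tau, a difference of 1.32 (standard error 0.39). Glul, the glutamine synthetase beside it, was at 9.60, 10.25 and 11.25 in NP and at 11.02, 11.91 and 11.72 in NP+tau, overlapping between the groups (1.19, standard error 0.46). NP replicates 1 and 2 were the low livers in both. The periportal P450 Cyp2f2 was at 8.69, 11.47 and 11.38 in NP and at 11.88, 13.02 and 12.46 in NP+tau, a difference of 1.94 (standard error 0.80) that was 1.03 without NP replicate 1, while only 3 of 11 periportal genes were above 0. Of 36 genes of drug and xenobiotic oxidation, 5 were higher and 3 lower without overlap. Cyp2c70, which makes muricholic bile acids in the mouse, differed by 0.69 (standard error 0.23), the epoxygenase Cyp2j5 by 1.37 (standard error 0.69), which was 0.55 without NP replicate 1, and Nr1i2, the xenobiotic receptor PXR, by -0.47 (standard error 0.17). Of 35 conjugating enzymes, 6 were higher and 2 lower without overlap, among them the glutathione transferases Gstm2 (0.82, standard error 0.21) and Gstk1 (0.77, standard error 0.31), the glucuronosyltransferase Ugt2b5 (0.72, standard error 0.25) and Mgst2, which makes leukotriene C4 (-1.19, standard error 0.25). The lower counts are close to the 7.76% of all genes that were lower without overlap, and 6.99% of all genes were higher without overlap. Without NP replicate 1 the differences of Gstk1 and Ugt2b5 were 0.47 and 0.45, and the median of the xenobiotic list went from 0.19 to -0.01. Of 17 genes known as male-biased in adult liver, Mup3 included, 4 were higher (6.99% of all genes) and 1 lower (7.76%) without overlap. Above 0 were 12 (median 0.24, and 0.11 without NP replicate 1). Of 17 female-biased genes, 1 was higher and 0 were lower without overlap, and 11 were above 0 (median 0.12, and -0.04 without NP replicate 1). Among genes with a mean at or above the 40th percentile, the median was 0.12 for 11 male-biased and 0.02 for 15 female-biased genes.

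Of the genes of taurine synthesis and transport, 4 of 10 were above 0, with a median of -0.10. The direction of the list depended on NP+tau replicate 1 and NP replicate 3: without the first, 9 of 10 genes were above 0 with a median of 0.19, without the second 6 were, with a median of 0.03, and without both livers labelled replicate 1 the median was 0.10. Csad, which makes hypotaurine, was at 8.48, 9.80 and 9.33 in NP and at 6.88, 10.01 and 8.66 in NP+tau. Cdo1, the cysteine dioxygenase before it, was at 12.65, 12.68 and 13.01 in NP and at 12.29, 12.97 and 12.62 in NP+tau. The groups overlapped for both enzymes. The taurine transporter Slc6a6 was the 1 gene of the list without overlap, against 7.76% of all genes lower in this way. Slc6a6 was at 10.66, 9.23 and 9.66 in NP and at 9.14, 8.91 and 8.84 in NP+tau. Its difference was -0.89 (standard error 0.36), and -0.48 without NP replicate 1. Of 19 genes of methionine and cysteine metabolism, 11 were above 0 with a median of 0.01. The aspartate aminotransferase Got1 of that list was at 12.05, 12.82 and 12.32 in NP and at 11.56, 11.32 and 12.003 in NP+tau (-0.77, standard error 0.26).

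Stress pathway values differed between single livers as well as between groups. Of 17 heat shock genes, 17 were above 0, but only 1 was higher without overlap (6.99% of all genes). That gene, the cytosolic chaperone Hsp90aa1, was at 10.99, 10.52 and 11.03 in NP and at 11.14, 12.17 and 11.38 in NP+tau. Its difference was 0.72 (standard error 0.30), and 0.41 without NP+tau replicate 2. The median of this list was 0.30, and 0.05 without NP+tau replicate 2. Asns, asparagine synthetase, which responds to amino acid shortage, was at 9.24, 7.86 and 6.93 in NP and at 6.06, 6.34 and 6.16 in NP+tau, a difference of -1.82 (standard error 0.56) that was -1.21 without NP replicate 1. Ppp1r15a, which restores translation after stress, was at 7.98, 7.95 and 7.52 in NP and at 6.70, 7.01 and 7.24 in NP+tau (-0.83, standard error 0.20), while the endoplasmic reticulum chaperone Hyou1 was higher, at 9.54, 8.96 and 9.21 in NP and at 10.10, 10.48 and 9.62 in NP+tau (0.83, standard error 0.26). In the stress list of the endoplasmic reticulum 18 of 29 genes were above 0 (median 0.06), and this count rested on single livers. It was 5 (median -0.32) without NP+tau replicate 2, 12 (median -0.03) without NP replicate 2 and 23 (median 0.34) without NP+tau replicate 1. Of 19 clock genes, 3 were lower (7.76% of all genes) and 0 higher (6.99%) without overlap. The nuclear receptor Rora differed by -0.62 (standard error 0.20) and the repressor Nfil3 by -0.71 (standard error 0.23). Cell cycle genes were below 0 for 29 of 30. Yet 0 were lower at an unadjusted p under 0.05 (3.97% of all genes) and 1 was lower without overlap (7.76%). The cell cycle list mean was 5.15 in NP+tau replicate 2 against 6.54 to 7.48 in the others, and without that liver the median difference went from -0.47 to 0.04.

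The behaviour of single livers was followed for the 741 probe sets that differed by at least 1. Of these, 549 kept a difference of at least 0.5 in the same direction whichever liver was left out. Without NP replicate 1, 90 (12.1%) dropped under 0.5, and without NP+tau replicate 1, 86 (11.6%) did. NP+tau replicate 2 carried 18 of them in this way, NP replicate 2 carried 4, NP+tau replicate 3 carried 1 and NP replicate 3 carried 0. Where the groups were also apart, 51 of 59 higher and 347 of 384 lower probe sets were kept in all 6 fits. Thus the higher probe sets of at least 1 (88 of 150 kept) hung on single livers to a larger share than the lower ones (461 of 591 kept), which was not tested.

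**Figure D4:**
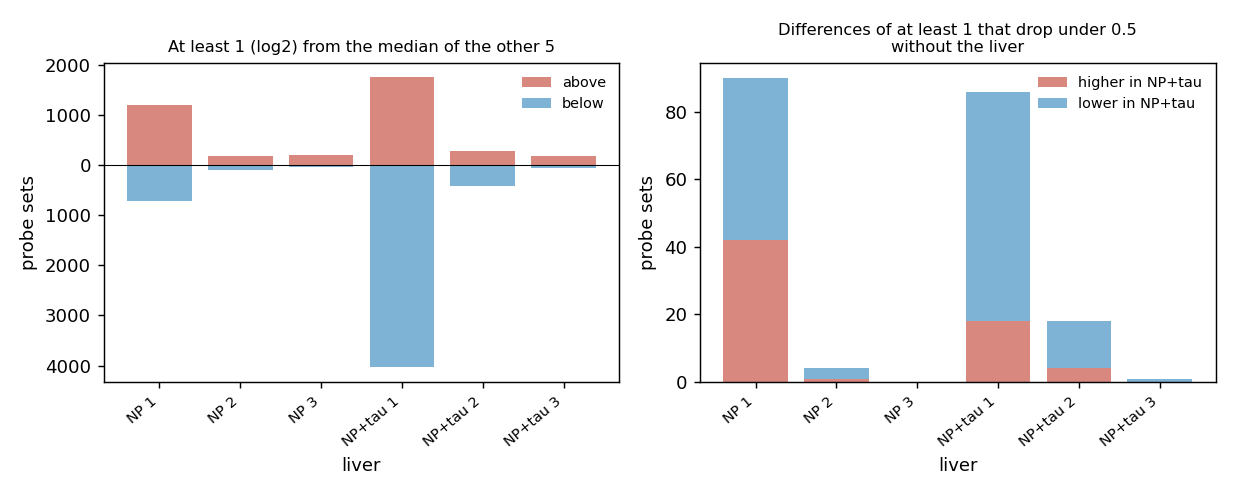
Left, number of probe sets (vertical axis, above and below 0) at least 1 log2 unit above or below the median of the other 5 livers in each liver. Right, number of probe sets with a difference of at least 1 that drops under 0.5 without the liver named, divided by direction. NP+tau replicate 1 has 4037 probe sets below the others, and NP replicate 1 and NP+tau replicate 1 carry 90 and 86 of the differences.

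Each of these livers had its own genes. NP replicate 1 was high in S100a8, a calcium-binding protein of neutrophils (12.75, against 5.49 to 8.81 in the others), in the macrophage lectin Chil3 (10.55, against 3.49 to 4.64) and in the iron-binding Lcn2 (11.53, against 5.69 to 7.36). It was low in the carbonic anhydrase Car3 (4.10, against 9.31 to 12.78), in Serpina6, the corticosteroid carrier of plasma (4.79, against 10.33 to 12.49), and in Cyp7a1, the rate-limiting enzyme of bile acid synthesis (4.77, against 8.19 to 11.24). NP replicate 2 shared the high Afp and Bex1 and was second lowest for Dio1 and Cyp4f14. NP+tau replicate 2 was high in the chaperones Hspa1b (12.13, against 8.30 to 10.77) and Creld2 (10.36, against 7.16 to 8.45) and low in Rrm2, which makes deoxynucleotides (4.86, against 8.11 to 9.80), and in the mitotic Ube2c (4.85, against 6.94 to 9.37). NP+tau replicate 1, the array that stood apart, was high in the cartilage collagen Col2a1 (7.82, against 4.54 to 4.92) and low in the disulfide oxidase Ero1a (5.35, against 8.40 to 8.92). NP+tau replicate 3 and NP replicate 3 had the fewest probe sets far from the other livers.

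**Figure D5:**
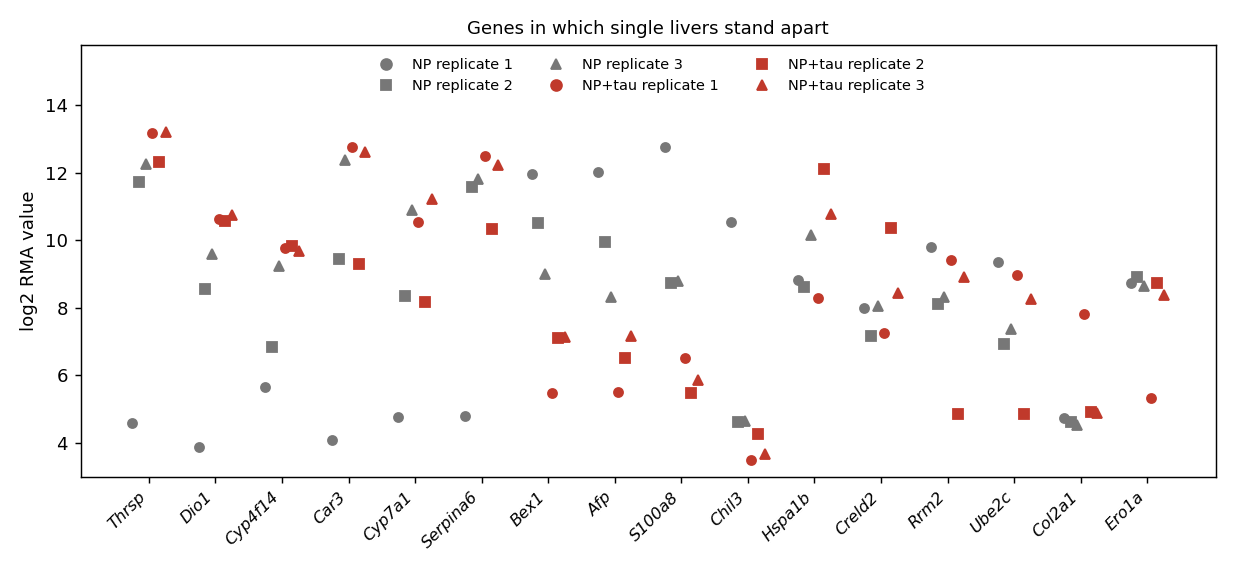
Log2 RMA value (vertical axis) of 16 genes in which single livers lie far from the others, with grey points for NP livers, red points for NP+tau livers and a marker shape for each replicate number. NP replicate 1 is lowest for Thrsp, Dio1, Car3, Cyp7a1 and Serpina6 and highest for Afp, S100a8 and Chil3, and NP+tau replicate 2 is highest for Hspa1b and Creld2 and lowest for Rrm2 and Ube2c.

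Without NP+tau replicate 1, 8 probe sets passed limma's test at an adjusted p under 0.05. They were 2 of Xist, 1 of Eif2s3y, 2 of the Y-linked Uty and 3 without a gene symbol. The difference was then -6.20 (standard error 0.27) for the brightest Xist probe set and 4.96 (standard error 0.08) for Eif2s3y. Without both livers labelled replicate 1, 8 probe sets passed as well: 2 of Xist, 1 of Eif2s3y, 1 each of S100a8 and S100a9, the partner of S100a8, and 3 without a symbol. S100a8 differed by -3.10 (standard error 0.16) and S100a9 by -2.65 (standard error 0.10) among the 4 livers left. The remaining pairs of this fit are NP livers with high Xist and NP+tau livers with low Xist, so that here too sex and diet cannot be told apart.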

How the data were processed

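Total RNA of 6 livers was measured on Affymetrix mouse genome arrays. The authors obtained log2 expression values with quantile normalisation and RMA, and the deposited log2 values were used as given. Control probe sets (64) were removed, and no filter on dim probe sets was set. NP+tau was compared with NP by the moderated linear model of limma (version 3.58.1, R 4.3.3; lmFit, then eBayes), with Benjamini-Hochberg adjustment over 45037 probe sets, which was first tested on simulated data. Of these, 34945 had 1 gene symbol in the probe annotation, 932 several and 9160 none. Each gene was described by its brightest probe set. The 41 gene lists were written by hand, and members and lists were chosen with earlier results of these data known. They are described by counts and medians. Genes named are the 12 higher and 12 lower with the smallest p among those without overlap, the 4 with the largest differences each way, up to 4 of a list with the smallest p and the member that went the other way, and the 5 farthest from the other livers in each liver. They had a mean at or above the 40th percentile, except members of lists, and not all are printed. A few further members of lists were named for their known roles after their values were seen. Promoters came from RefSeq, GRCm38.p6. The 6 arrays limit the precision. Alternatives were filters, an intensity trend, array weights, centring, a threshold of 0.1, a replicate block, Xist as a covariate and livers left out. Newborn samples were not analysed here, and muscle was used only to check Xist and Y-linked transcripts.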

Additional observations from a re-analysis of the deposited data

How the results depend on the processing

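The count of probe sets at an adjusted p under 0.05 was 0 with either filter, the intensity trend, array weights and centring, and 0 at the threshold of 0.1. Without 1 liver it was 0 to 8, with the 8 found without NP+tau replicate 1, and without both livers labelled replicate 1 it was 8. With the Xist level as a covariate it was 10893, with 8728 higher and 8606 lower at an unadjusted p under 0.05 and 2370 higher and 5190 lower by at least 1. Xist differs within a group only among the NP+tau livers, so that the covariate takes up the contrast of NP+tau replicate 1 with the others and leaves this array to be set against NP. The number higher at an unadjusted p under 0.05 was 205 with the filter on the highest value and 156 with that on the mean, where 1005 were lower, and fewer probe sets were tested (29274 and 22519). With array weights 1161 were higher at an unadjusted p under 0.05 and 262 lower by at least 1. Without both livers labelled replicate 1, 983 were higher at an unadjusted p under 0.05, and 74 higher and 178 lower by at least 1. Without 1 liver, the numbers at an unadjusted p under 0.05 were 236 to 1053 higher and 801 to 2267 lower, and those that differed by at least 1 were 56 to 323 higher and 315 to 1408 lower. All 4 lowest counts were found without NP replicate 1. The highest came from leaving out NP+tau replicate 1 (1053), from leaving out NP+tau replicate 2 (323) and from leaving out NP+tau replicate 3 (2267 and 1408).

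Same-numbered livers came from different dams, and their deviations did not go together (correlations 0.01, -0.12 and 0.11). With the replicate block, 0 probe sets were called, and 415 were higher and 1131 lower at an unadjusted p under 0.05.

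Of 85 genes whose differences were followed, 80 kept their sign in all alternatives. For those whose groups did not overlap, leaving livers out cannot change the sign. Gadd45g was at -0.092 with array weights and at -0.25 without both livers labelled replicate 1, and over the fits without 1 liver it ranged from -0.062 to 0.62. In these fits Crp ranged from -0.10 to 0.56, Csad from -1.43 to 0.13 and Cdo1 from -0.33 to 0.013, with the sign turned by NP replicate 1 for Crp and by NP+tau replicate 1 for Csad and Cdo1. With the Xist covariate, Crp was at -0.32 and Eif2s3y at -0.30. The cause was not tested.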
